A study of Mus musculus with 16 samples.

Results

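Transcripts of 10 genes of apical membrane recycling were examined in differentiated jejunal enteroids, which are epithelial cultures grown from intestinal crypts. The genes were the myosin motors Myo5a, Myo5b, Myo5c and Myo6, the Rab11 effectors Rab11fip1, Rab11fip2 and Rab11fip5, the syntaxin Stx3, its partner Stxbp2 and the tethering factor Vps33b. They were taken by gene name from the 54532 genes of the count table, and all 10 were found once and passed the filter on low counts in every comparison. The 16 cultures formed 4 groups of 4. Control cultures are labeled only as control with no treatment, and the methods describe them as enteroids of Vil-CreERT2;Myo5b-flox/flox mice that received ethanol, whereas a legend of the paper calls them healthy littermates. Adults of the same Vil-CreERT2;Myo5b-flox/flox line were the source of MYO5BΔIEC cultures. Those of MYO5B(G519R) came from adult Vil-CreERT2;Myo5b-flox/G519R mice, in which 1 allele carries the G519R point mutation of MYO5B. In both, Cre recombinase, driven by the villin promoter of the intestinal epithelium, was switched on in vitro by a 24 h exposure to 4-OH-tamoxifen (1 µM) before a differentiation medium was given. The untreated MYO5BΔIEC cultures received vehicle. The fourth group consisted of MYO5BΔIEC cultures given 100 nM Compound-1, a synthetic agonist of the lysophosphatidic acid receptor LPAR5, for 2 days. These are called treated cultures here. Since 4-OH-tamoxifen is recorded for the MYO5BΔIEC and MYO5B(G519R) cultures and not for the controls, the drug and the loss of MYO5B cannot be told apart in a comparison with control.

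Myosin Vb is a motor that walks along actin filaments and carries recycling endosomes to the apical membrane of enterocytes. It is held on these endosomes by Rab11 and by Rab11 family interacting proteins, of which Rab11fip1, Rab11fip2 and Rab11fip5 are members. At the apical membrane, vesicles fuse through the SNARE protein syntaxin 3, encoded by Stx3, with its chaperone Munc18-2, encoded by Stxbp2. Mutations of MYO5B, STX3 and STXBP2 are known causes of microvillus inclusion disease or of closely related enteropathies, and VPS33B is a tethering factor needed for apical polarity. Myosin VI, encoded by Myo6, walks in the opposite direction and acts at the base of microvilli and in endocytosis.

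Between 27804968 and 40101729 reads were counted on genes in each culture, so that a count of 0 would allow up to 0.0733 to 0.106 CPM (counting error only). CPM are counts relative to library size, scaled here between libraries by the TMM method of edgeR. All 10 enterocyte markers were detected in every culture. Of 5 fibroblast genes, Dcn and Lum were at 0 in all 16, while Col1a1, Col1a2 and Pdgfra had at most 17, 10 and 13 counts. Among other non-epithelial markers, Itgam (37 to 84 counts), Pecam1 (3 to 43) and Tubb3 (9 to 62) were detected in every culture at low levels. Control culture 1 stood apart from the other controls, with a mean correlation to them of 0.935 against 0.968 to 0.972 and a summed enterocyte marker level of 3635 CPM against 12840 to 16108 CPM. Treated cultures 3 and 4 had summed goblet cell marker levels of 5597 and 4000 CPM, against 1286 to 2324 CPM in the other 14 cultures, and 4 of the 6 goblet genes were higher in both than in any other culture. The goblet sum was 1286 to 1713 CPM in control and 1869 CPM or above in every other culture. Enterocyte marker sums were 6420 to 9830 CPM in MYO5B(G519R), 6968 to 13453 CPM in MYO5BΔIEC and 6258 to 8439 CPM with Compound-1. For 6 Paneth cell markers the sum was 3191 CPM in control culture 1 and 6397 to 7456 CPM in the other controls. It was 3201 to 4119 CPM in MYO5B(G519R), 3112 to 4543 CPM in MYO5BΔIEC and 3286 to 4626 CPM with Compound-1. The summed level of 5 stem cell markers was 2210 to 6012 CPM in control, 1180 to 2581 CPM in MYO5B(G519R), 808 to 2015 CPM in MYO5BΔIEC and 508 to 1692 CPM with Compound-1. For 5 proliferation markers it was 1371 to 1763 CPM in control, 1180 to 1514 CPM in MYO5B(G519R), 982 to 1220 CPM in MYO5BΔIEC and 633 to 1280 CPM with Compound-1. The part of these shifts in the differences from control given below was not tested. The share of mitochondrially encoded counts was 6.41% to 10.4% in control and 3.79% to 6.63% in the other cultures.

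Relative to the deposited length of each gene, the order of the 10 genes in control enteroids ran from Stxbp2 to Rab11fip5. This order depends on those lengths, which need not be the lengths of the transcripts expressed. The level was 26.0 ± 1.18 FPKM (SD, n = 4) for Stxbp2, 18.9 ± 1.72 FPKM for Myo6, 18.8 ± 2.88 FPKM for Myo5b and 13.6 ± 1.59 FPKM for Stx3, where FPKM are the values given by the authors, counts relative to gene length and library size. Rab11fip1 was at 6.29 ± 0.602 FPKM, Myo5c at 6.23 ± 0.482 FPKM and Vps33b at 4.54 ± 0.420 FPKM. Rab11fip2 (0.951 ± 0.365 FPKM), Myo5a (0.321 ± 0.125 FPKM) and Rab11fip5 (0.0473 ± 0.0264 FPKM) were low. Among neighbors in this order, only Myo6 and Myo5b and only Rab11fip1 and Myo5c overlapped between control cultures. Myo5b was behind Stxbp2 and Myo6 in control and in MYO5B(G519R), where it had 15.3 ± 1.79 FPKM, and came after Stx3 and Rab11fip1 as well in MYO5BΔIEC at 13.1 ± 3.12 FPKM and in treated enteroids at 11.1 ± 2.55 FPKM. Rab11fip1 was above Myo5b in mean level in MYO5BΔIEC (13.8 ± 1.64 FPKM) and treated enteroids (18.6 ± 6.64 FPKM), although the ranges of these genes overlapped in both groups.

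**Figure D1:**
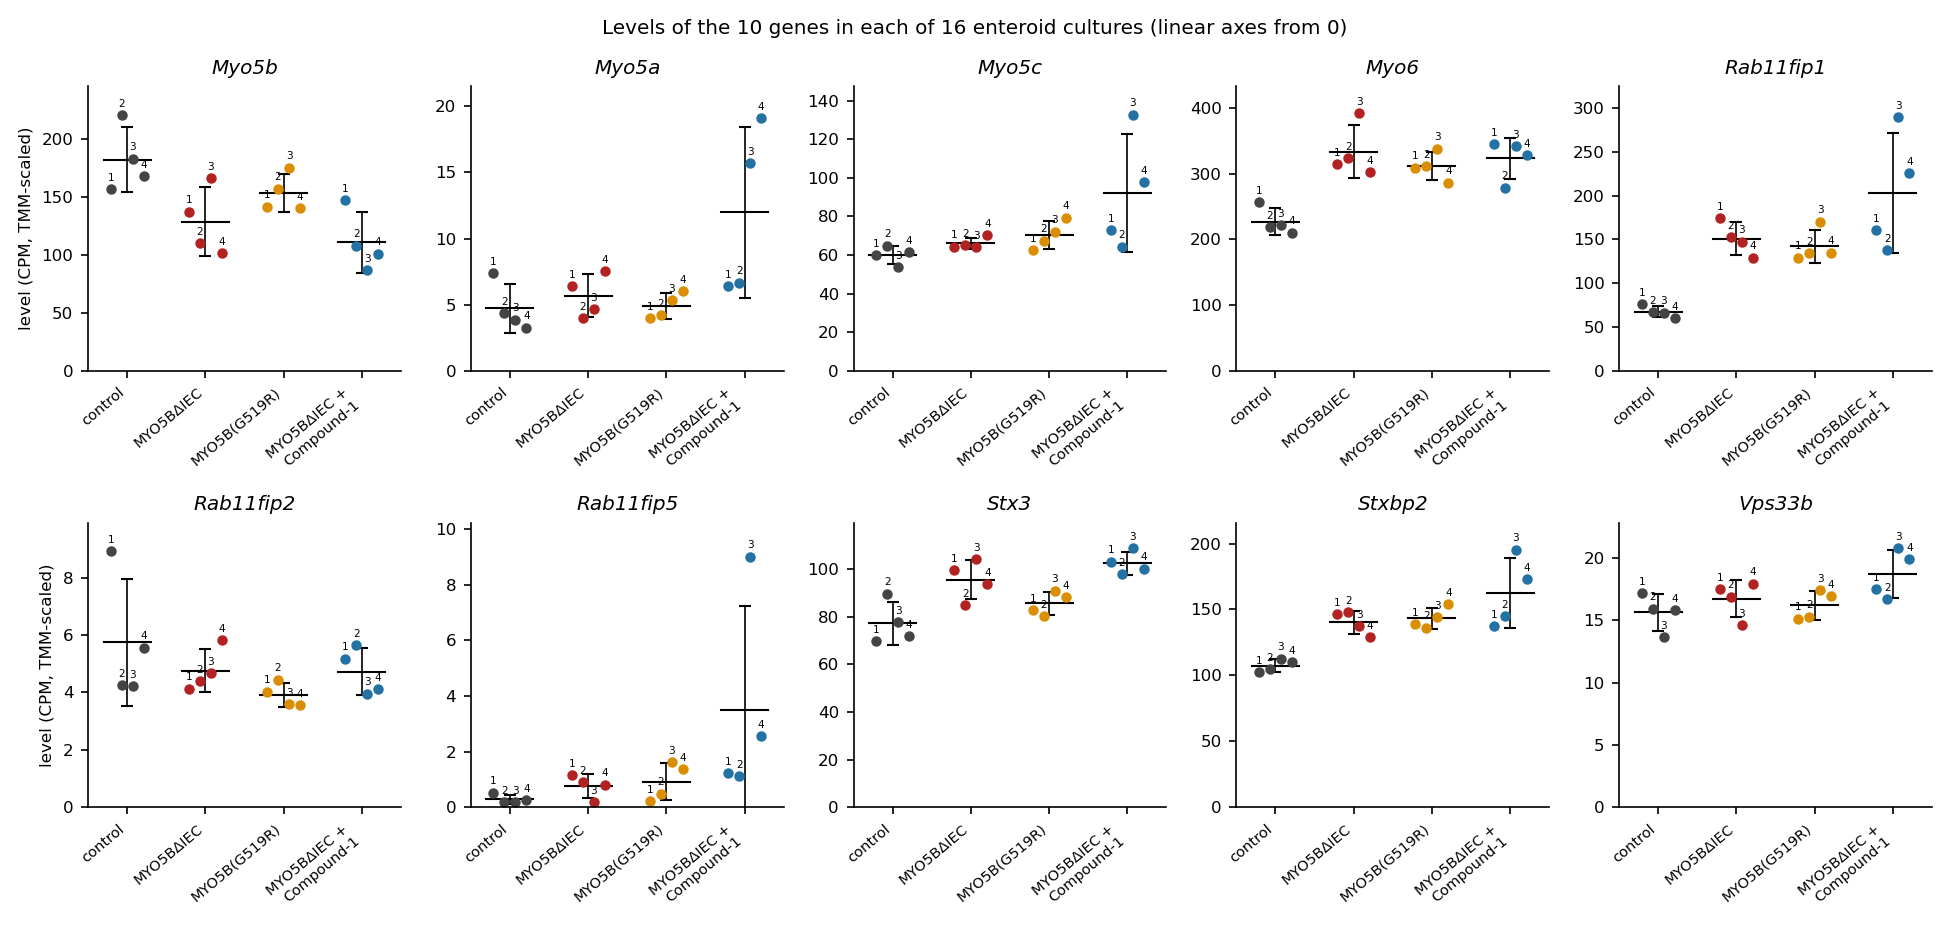
Level of each gene in CPM (counts relative to TMM-scaled library size, linear axes from 0) in the 4 groups, 1 point per culture with its replicate number. Horizontal lines are means and vertical bars SD (n = 4, cut at 0 for Rab11fip5). Rab11fip1 lay at 129 CPM or above in all 12 cultures with a Myo5b mutation and at 76.0 CPM or below in the controls, and Myo5a and Rab11fip5 were highest in treated cultures 3 and 4.

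All 10 genes are protein coding, and their positions in GRCm38 match GENCODE M21 exactly. The motors Myo5a (ENSMUSG00000034593, chromosome 9, 75071015 to 75223688) and Myo5c (ENSMUSG00000033590, chromosome 9, 75232020 to 75305451) are neighbors on the same strand, 8331 bases apart, and Myo6 (ENSMUSG00000033577, chromosome 9, 80165031 to 80311729) lies on the same chromosome. Promoter windows of RefSeq (GRCm38.p6) were matched for 7 of the 10 genes. The 250 bases before the RefSeq start are shown for 2 genes that rose in at least 1 comparison with control, Myo6 and Rab11fip5, and for 2 that did not pass the edgeR test in any, Myo5c and Stx3. They run 5′ to 3′ on the strand of the gene, and capitals mark the GC box GGGCGG, the CCAAT box CCAAT and the TATA box TATAAA, each searched on both strands, where neighboring matches may overlap. The windows are chr9:80164784-80165033 (plus strand) for Myo6, chr6:85374635-85374884 (minus strand) for Rab11fip5, chr9:75231764-75232013 (plus strand) for Myo5c and chr19:11819404-11819653 (minus strand) for Stx3.
Myo6: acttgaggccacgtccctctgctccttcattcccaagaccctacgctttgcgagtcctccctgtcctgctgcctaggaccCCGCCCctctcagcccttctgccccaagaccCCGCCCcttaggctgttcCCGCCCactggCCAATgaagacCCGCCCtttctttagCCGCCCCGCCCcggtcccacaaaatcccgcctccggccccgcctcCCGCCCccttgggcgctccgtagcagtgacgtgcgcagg
Rab11fip5: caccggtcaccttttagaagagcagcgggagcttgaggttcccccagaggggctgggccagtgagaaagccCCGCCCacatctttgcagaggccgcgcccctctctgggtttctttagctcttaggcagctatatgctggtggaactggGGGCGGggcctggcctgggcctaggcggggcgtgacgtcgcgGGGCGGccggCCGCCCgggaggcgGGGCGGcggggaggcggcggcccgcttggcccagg
Myo5c: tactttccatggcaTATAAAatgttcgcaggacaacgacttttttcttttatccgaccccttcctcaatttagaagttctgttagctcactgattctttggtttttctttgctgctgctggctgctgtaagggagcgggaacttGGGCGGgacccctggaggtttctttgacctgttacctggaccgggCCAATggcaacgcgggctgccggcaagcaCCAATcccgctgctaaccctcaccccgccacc
Stx3: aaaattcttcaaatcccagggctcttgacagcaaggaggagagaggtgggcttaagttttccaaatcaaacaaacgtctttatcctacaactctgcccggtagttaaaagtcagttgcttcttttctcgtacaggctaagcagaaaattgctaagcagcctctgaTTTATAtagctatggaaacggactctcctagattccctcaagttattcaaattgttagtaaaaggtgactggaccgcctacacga
The window of Myo6 held 7 GC boxes and 1 CCAAT box, and that of Rab11fip5 held 5 GC boxes. The window of Myo5c held 1 GC box, 2 CCAAT boxes and 1 TATA box, and that of Stx3 held 1 TATA box only. Among the matched genes not shown, Stxbp2 and Myo5a, each called higher in at least 1 comparison with control, held 0 and 1 GC boxes. The windows of Rab11fip2, which did not pass the edgeR test, held 4 and 3. The number of GC boxes thus did not separate the genes that rose from the others. Of 32851 promoter windows of the same length, 32.7% held a GC box, 33.8% a CCAAT box and 12.4% a TATA box. The AP-1 motif TGANTCA, present in 6.75% of the windows, was in none of the windows of the 7 genes. A match describes the sequence and does not mark a bound site.

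To examine how loss of MYO5B was related to the transcripts of its partners, MYO5BΔIEC and MYO5B(G519R) enteroids were each compared with control. Rab11fip1, the Rab11 effector also known as RCP, was higher by 2.16-fold in MYO5BΔIEC and 1.99-fold in MYO5B(G519R), and Myo6 was higher in both by a smaller amount. Stxbp2 was higher in both by nearly the same fold, but passed the test only in MYO5B(G519R). Myo5b itself had lower mean levels that did not pass the edgeR test. In MYO5BΔIEC it passed in 6 of 8 alternative settings with all cultures kept, but in only 2 with 1 culture left out in turn. Both comparisons share the 4 control cultures, so they are not independent.

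In MYO5BΔIEC against control, 2 of the 10 genes passed an edgeR BH-adjusted p of 0.05 as higher and 0 as lower, while 13.5% of 17951 tested genes were called higher and 13.8% lower. The 2 genes were Rab11fip1 and Myo6. Of the 10 genes, 5 had an unadjusted p under 0.05, as did 7244 of all tested genes. DESeq2 called 4 of the 10 and 5956 genes in all. Without control culture 1, 5 were called in each comparison, Rab11fip1, Myo6, Stxbp2 and Rab11fip5 as higher and Myo5b as lower, while the shares of all tested genes were 21.2% higher and 20.8% lower in MYO5BΔIEC and 24.0% higher and 22.1% lower in MYO5B(G519R). In MYO5B(G519R) against control, 3 genes were called higher (Rab11fip1, Myo6 and Stxbp2) and 0 lower. There 6 of the 10 had an unadjusted p under 0.05, as did 7030 of all tested genes. DESeq2 called 3 of the 10 and 5803 genes in all. Over all 17829 genes tested there by edgeR, 13.1% were called higher and 13.7% lower. The shares of the 10 genes called higher by edgeR therefore stood at or somewhat above the background, over few genes. The median log2 fold change of the 10 genes was 0.23 in MYO5BΔIEC (all tested genes -0.01) and 0.10 in MYO5B(G519R) (all tested genes -0.05).

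**Figure D2:**
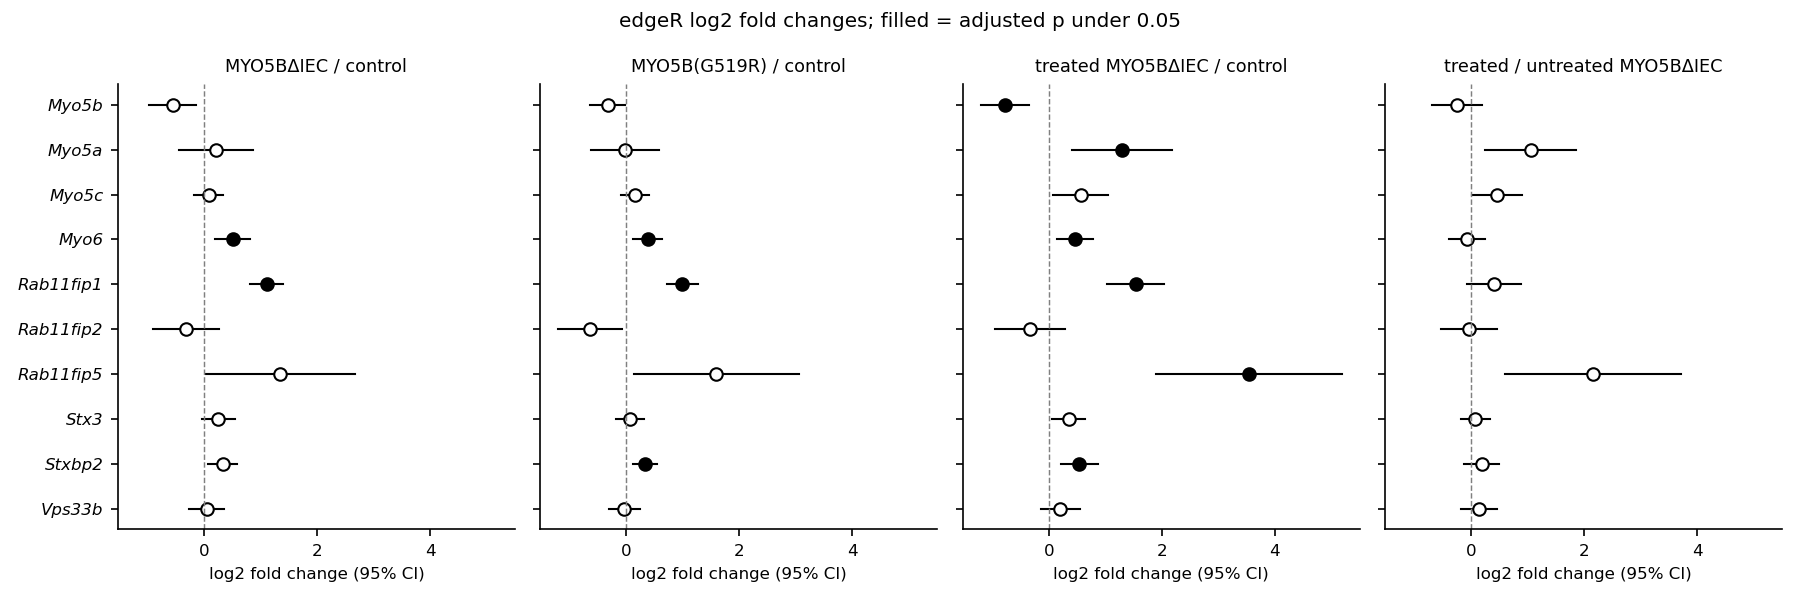
Log2 fold changes of the 10 genes from edgeR in 4 comparisons (points) with 95% confidence intervals (lines). Filled points passed an adjusted p of 0.05. Rab11fip1 and Myo6 are filled in all 3 comparisons with control, Myo5b in that of treated MYO5BΔIEC only, and no point is filled between treated and untreated MYO5BΔIEC.

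Myo5b (ENSMUSG00000025885, positions 74440936 to 74771493 of chromosome 18), the targeted gene, was measured at 157, 221, 183 and 168 CPM in control cultures 1 to 4. It was at 138, 111, 167 and 101 CPM in MYO5BΔIEC and at 142, 157, 176 and 141 CPM in MYO5B(G519R). MYO5BΔIEC culture 3 and MYO5B(G519R) cultures 2 and 3 lay above the lowest control, so the ranges overlapped in both comparisons. The log2 fold change was -0.55 (SE 0.19, edgeR BH-adjusted p = 0.0503) in MYO5BΔIEC, with a 95% interval of -0.97 to -0.14, and -0.33 (SE 0.14, edgeR BH-adjusted p = 0.109) in MYO5B(G519R). Leaving out control culture 1 gave an edgeR BH-adjusted p of 0.0155 in the first and 0.0286 in the second, and leaving out MYO5BΔIEC culture 3 gave 0.0203 in the first. Leaving out any other culture gave no call, with an edgeR BH-adjusted p of up to 0.142 in the first and 0.281 in the second. In MYO5BΔIEC the gene was also called lower in 6 of 8 other settings, by DESeq2 (adjusted p = 0.0336), in a joint edgeR fit of the 4 groups (0.0287), in edgeR with no filter (0.0470) or after removal of a length-dependent trend (0.0111), and by limma on log2(FPKM + 1) (0.0489) and log2(FPKM + 0.1) (0.0496). Myo5b was not called in MYO5BΔIEC with the size factors of DESeq2 in edgeR (edgeR BH-adjusted p = 0.0554) or with the replicate block (0.0747). Counts over the whole gene include transcripts that lack the floxed exons and those that carry the point mutation, and in bulk RNA fewer cells that express a gene cannot be told apart from less RNA per cell.

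Rab11fip1 (ENSMUSG00000031488, chromosome 8, 27138773 to 27174646) was at 76.0, 67.3, 66.3 and 60.3 CPM in control cultures 1 to 4. The MYO5BΔIEC cultures had 174, 152, 147 and 129 CPM, and the MYO5B(G519R) cultures 129, 134, 170 and 135 CPM. Every culture of both groups lay above every control. The log2 fold change was 1.11 (SE 0.13, edgeR BH-adjusted p = 0.00142) in MYO5BΔIEC, a fold of 2.16, and 0.99 (SE 0.13, edgeR BH-adjusted p = 0.00194) in MYO5B(G519R), a fold of 1.99. This gene passed the test in both comparisons whichever culture was left out. An annotated exon of the opposite-strand gene 4933416M07Rik overlaps Rab11fip1, but had 0 to 15 counts per culture against 1703 to 11854 for Rab11fip1.

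Myo6, the motor that walks toward the minus end of actin, was at 257, 218, 222 and 210 CPM in control. It was at 314, 324, 392 and 302 CPM in MYO5BΔIEC and at 309, 312, 338 and 286 CPM in MYO5B(G519R). All 8 mutant cultures exceeded the highest control. The log2 fold change was 0.50 (SE 0.14, edgeR BH-adjusted p = 0.0248) in MYO5BΔIEC and 0.37 (SE 0.11, edgeR BH-adjusted p = 0.0371) in MYO5B(G519R). These calls did not hold when a trend of expression on gene length was removed (0.19, edgeR BH-adjusted p = 0.258, and 0.13, edgeR BH-adjusted p = 0.320). They were also lost with no filter (edgeR BH-adjusted p = 0.0530 and 0.0738). In MYO5BΔIEC the call was also lost, at edgeR BH-adjusted p of 0.0580 to 0.0790, without any 1 of control cultures 2, 3 and 4 or MYO5BΔIEC cultures 2 and 3, and in MYO5B(G519R), at 0.0816 to 0.104, without any 1 of control cultures 2, 3 and 4 or MYO5B(G519R) cultures 1, 2 and 3.

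Stxbp2 (ENSMUSG00000004626, chromosome 8, 3630955 to 3643644), encoding the syntaxin chaperone, was at 102, 105, 113 and 110 CPM in control. It was at 147, 148, 138 and 129 CPM in MYO5BΔIEC and at 139, 136, 144 and 154 CPM in MYO5B(G519R). All mutant cultures lay above all controls. The log2 fold change was 0.33 in both, with an SE of 0.12 and an edgeR BH-adjusted p of 0.0567 in MYO5BΔIEC, and an SE of 0.10 and an edgeR BH-adjusted p of 0.0310 in MYO5B(G519R). In MYO5BΔIEC the test was passed without control culture 1 (edgeR BH-adjusted p = 0.0363) or MYO5BΔIEC culture 4 (edgeR BH-adjusted p = 0.0444). It was not passed without any other culture (edgeR BH-adjusted p up to 0.142). Of 8 settings with all cultures kept, Stxbp2 was called there in 5. It was not called with no filter (edgeR BH-adjusted p = 0.172), with the replicate block (0.134) or after removal of the trend on gene length (0.0812). In MYO5B(G519R) the call was lost, at edgeR BH-adjusted p of 0.0576 to 0.0832, without any 1 of control cultures 2, 3 and 4 or of the 4 MYO5B(G519R) cultures. It was also lost there with no filter (edgeR BH-adjusted p = 0.0759). Its partner Stx3 (ENSMUSG00000041488, chromosome 19, 11775118 to 11819403) was at 69.6, 89.7, 77.7 and 71.9 CPM in control, at 99.4, 84.9, 104 and 93.7 CPM in MYO5BΔIEC and at 82.8, 80.3, 90.9 and 88.2 CPM in MYO5B(G519R). Its ranges overlapped, and its log2 fold changes of 0.25 (95% interval -0.04 to 0.55, edgeR BH-adjusted p = 0.185) and 0.06 (95% interval -0.19 to 0.32, edgeR BH-adjusted p = 0.725) did not pass the test. Per length, Stx3 amounted to 0.524 ± 0.0674 of Stxbp2 in control (SD, n = 4), 0.498 ± 0.0580 in MYO5BΔIEC and 0.435 ± 0.0174 in G519R mutant enteroids. These ratios overlapped between MYO5BΔIEC and control, whereas the highest in MYO5B(G519R), 0.458, was below the lowest control, 0.476.

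The other motors of class V were not called against control in either untreated mutant group. Myo5c, a class V myosin of glandular epithelia, was at 60.0, 64.8, 53.6 and 61.4 CPM in control, at 64.3, 65.1, 64.2 and 70.3 CPM in MYO5BΔIEC and at 62.6, 67.4, 72.1 and 79.2 CPM in MYO5B(G519R). Its log2 fold changes of 0.09 (95% interval -0.17 to 0.34) and 0.15 (95% interval -0.10 to 0.40) lay within the spread between cultures, and both changed sign, to -0.17 and -0.06, when the trend on gene length was removed. Myo5a, the myosin of melanosome and neuronal transport, was at 7.40, 4.35, 3.85 and 3.26 CPM in control, at 6.42, 3.99, 4.67 and 7.55 CPM in MYO5BΔIEC and at 4.00, 4.20, 5.32 and 6.04 CPM in MYO5B(G519R). Its highest control was culture 1, and its log2 fold changes were 0.21 (95% interval -0.44 to 0.86) and -0.03 (95% interval -0.63 to 0.57). Without control culture 1 these were 0.50 and 0.29, and neither passed the test (edgeR BH-adjusted p = 0.140 and 0.285).

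The 2 other Rab11 effectors had few counts and did not pass the test. Rab11fip2 (ENSMUSG00000040022, chromosome 19, 59902884 to 59943654), an effector that also binds myosin Vb, was at 8.91, 4.26, 4.22 and 5.56 CPM in control, at 4.13, 4.38, 4.67 and 5.83 CPM in MYO5BΔIEC and at 4.03, 4.44, 3.58 and 3.55 CPM in MYO5B(G519R). Control culture 1 was again the highest. The log2 fold changes were -0.32 (SE 0.27, edgeR BH-adjusted p = 0.407) and -0.64 (SE 0.26, edgeR BH-adjusted p = 0.0915), and without control culture 1 they were -0.04 and -0.32. Rab11fip5 (ENSMUSG00000051343, chromosome 6, 85334962 to 85374634), an effector also known as Rip11, had only 6 to 17 counts per control culture, or 0.524, 0.192, 0.185 and 0.248 CPM. It was at 1.16, 0.913, 0.174 and 0.816 CPM in MYO5BΔIEC and at 0.214, 0.487, 1.63 and 1.37 CPM in MYO5B(G519R). MYO5BΔIEC culture 3 and MYO5B(G519R) culture 1 were at control level and the other mutant cultures were near or above the highest control. The log2 fold changes were 1.35 (SE 0.60, edgeR BH-adjusted p = 0.115) and 1.60 (SE 0.65, edgeR BH-adjusted p = 0.0971). Without control culture 1 they were 1.80 (edgeR BH-adjusted p = 0.0374) and 2.08 (edgeR BH-adjusted p = 0.0313). Vps33b (ENSMUSG00000030534, chromosome 7, 80269649 to 80291754), the tethering factor, was measured at 13.7 to 17.2 CPM in control, 14.6 to 18.0 CPM in MYO5BΔIEC and 15.2 to 17.4 CPM in MYO5B(G519R). Its log2 fold changes were 0.05 (95% interval -0.27 to 0.36) and -0.03 (95% interval -0.31 to 0.24).

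Counted by non-overlap of the 4 cultures against the 4 controls, 3 of the 10 genes stood apart in MYO5BΔIEC and 3 in MYO5B(G519R), the same 3 genes Rab11fip1, Myo6 and Stxbp2. Over all tested genes, 26.5% and 27.1% did so. Between the point mutant and MYO5BΔIEC, 0 of the 10 genes were called, where 0.00557% of 17943 genes were called. None of the 10 had an unadjusted p under 0.05 in that comparison (772 genes in all), and DESeq2 called 0 (4 in all). The 95% intervals of the difference for MYO5B(G519R) against MYO5BΔIEC were -0.12 to 0.58 for Myo5b, -0.39 to 0.17 for Rab11fip1 and -0.39 to 0.14 for Myo6, on the log2 scale.

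The treated cultures addressed how Compound-1 was related to these transcripts in MYO5BΔIEC. Between treated and untreated MYO5BΔIEC enteroids, edgeR called 0 of the 10 genes, and 0% of 18037 genes. At an unadjusted p under 0.05 there were 3 of the 10, namely Rab11fip5, Myo5a and Myo5c, and 1355 genes in all, and DESeq2 called 0 of the 10 and 91 genes in all. The ranges of treated and untreated cultures overlapped for all 10 genes (non-overlap in 2.82% of all tested genes). Myo5a was at 6.37, 6.67, 15.7 and 19.1 CPM in treated cultures 1 to 4, Myo5c at 73.0, 64.4, 133 and 97.7 CPM, and Rab11fip5 at 1.23, 1.12, 9.01 and 2.56 CPM. For each of these genes the high values were those of cultures 3 and 4, and cultures 1 and 2 lay within or close to the untreated range. The log2 fold changes were 1.06 (SE 0.37, edgeR BH-adjusted p = 0.560) for Myo5a, 0.45 (SE 0.20, edgeR BH-adjusted p = 0.659) for Myo5c and 2.16 (SE 0.71, edgeR BH-adjusted p = 0.560) for Rab11fip5. Rab11fip1 was also highest in cultures 3 and 4, at 161, 138, 290 and 226 CPM, with a log2 fold change of 0.41 (95% interval -0.07 to 0.88).

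Treated cultures 3 and 4 were also those with the high goblet cell marker levels given above. Among the 6 goblet genes, Fcgbp was at 1371, 935, 3575 and 2614 CPM, Clca1 at 200, 135, 709 and 458 CPM and Muc2, the main secreted mucin, at 119, 135, 336 and 220 CPM in treated cultures 1 to 4. Spdef was at 13.7, 19.6, 29.6 and 23.4 CPM. The other goblet genes, Tff3 (351, 557, 771 and 530 CPM) and Agr2 (141, 161, 177 and 156 CPM), were lower in culture 4 than in culture 2. The part of goblet cells in the levels of Myo5a, Myo5c, Rab11fip1, Rab11fip5 and the remaining 6 genes was not tested. Those 6 genes differed by less between treated and untreated cultures. Myo5b was at 148, 108, 86.8 and 101 CPM in treated cultures, with a log2 fold change of -0.24 (95% interval -0.69 to 0.20). Myo6 was at 345, 278, 341 and 328 CPM (-0.07, 95% interval -0.39 to 0.25) and Stx3 at 103, 97.7, 109 and 100 CPM (0.07, 95% interval -0.18 to 0.33). Stxbp2 had 137, 145, 195 and 173 CPM (0.19, 95% interval -0.12 to 0.49). The intervals were -0.53 to 0.46 for Rab11fip2 and -0.19 to 0.46 for Vps33b. Vps33b was at 17.5, 16.7, 20.8 and 19.9 CPM in treated cultures 1 to 4. Treated cultures 3 and 4 were thus also higher than any other culture for Stxbp2 and Vps33b. For Myo5b they were lower than any other, though treated culture 4 was close to MYO5BΔIEC culture 4 (both 101 CPM).

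Treated MYO5BΔIEC against control, which shares its controls with the comparisons above, had 5 genes higher and 1 lower, where 15.7% of 17937 genes were called higher and 13.7% lower. DESeq2 called 7 of the 10 and 6276 genes in all. Stx3 had a log2 fold change of 0.35 with ranges that did not overlap (edgeR BH-adjusted p = 0.0688) and Myo5c one of 0.57 (edgeR BH-adjusted p = 0.0740). Stx3 was called by DESeq2 (adjusted p = 0.0312), in the joint edgeR fit (0.0186) and by limma on log2(FPKM + 1) (0.0434) and log2(FPKM + 0.1) (0.0440), and Myo5c in the joint fit (0.0168). In the other settings Stx3 was not called (edgeR BH-adjusted p up to 0.328), nor with any 1 culture left out (0.0506 to 0.175). Non-overlapping ranges were found for 6 of the 10 genes and 27.6% of all tested genes. The gene that fell was Myo5b, by 0.77 on the log2 scale (SE 0.19, edgeR BH-adjusted p = 0.0146), a call lost without treated culture 4 (edgeR BH-adjusted p = 0.0529). Rab11fip1 rose by 1.54 (SE 0.23, edgeR BH-adjusted p = 0.00398), Rab11fip5 by 3.54 (SE 0.74, edgeR BH-adjusted p = 0.00810), Myo5a by 1.29 (SE 0.40, edgeR BH-adjusted p = 0.0348), Stxbp2 by 0.55 (SE 0.15, edgeR BH-adjusted p = 0.0212) and Myo6 by 0.46 (SE 0.14, edgeR BH-adjusted p = 0.0362). For Rab11fip5 the change was 2.44 without treated culture 3, the lowest value with any 1 culture left out, and it passed the test each time. Rab11fip1 also passed each time. Myo5a was not called without any 1 of control cultures 2, 3 and 4 or treated cultures 3 and 4 (edgeR BH-adjusted p of 0.0834 to 0.112), and Myo6 was not called without any 1 of control cultures 2, 3 and 4 or treated cultures 1, 3 and 4 (0.0727 to 0.107). Stxbp2 was not called without any 1 of control cultures 2, 3 and 4 or treated cultures 3 and 4 (0.0522 to 0.0703). With the trend on gene length removed, Myo6 (0.15, edgeR BH-adjusted p = 0.341) and Myo5a (0.98, edgeR BH-adjusted p = 0.0582) were not called. Nor was Myo6 with no filter (edgeR BH-adjusted p = 0.0762). By limma, Myo5a was not called on log2(FPKM + 1) (limma adjusted p = 0.128) or log2(FPKM + 0.1) (0.133).

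The balance among the class V myosins was described per deposited gene length, with the same limit as above. Myo5b made up 70.6%, 76.4%, 76.5% and 72.5% of the summed FPKM of Myo5a, Myo5b and Myo5c in control cultures 1 to 4. Its share was 66.6%, 61.9%, 71.1% and 57.2% in MYO5BΔIEC cultures 1 to 4 and 68.4%, 69.0%, 69.8% and 62.7% in those of MYO5B(G519R). Treated cultures had shares of 65.5%, 61.0%, 37.6% and 47.7%. All 4 MYO5B(G519R) shares and all 4 treated shares lay below the lowest control, and the MYO5BΔIEC shares overlapped the controls only between MYO5BΔIEC culture 3 and control culture 1, so that without that control they lay below all controls. The level of Myo5b was 3.03 ± 0.426 times that of Myo5c in control, 2.19 ± 0.292 times in MYO5B(G519R), 1.96 ± 0.506 times in MYO5BΔIEC and 1.34 ± 0.614 times with Compound-1. Only in treated culture 3 was Myo5c the most abundant class V myosin, with a ratio of Myo5b to Myo5c of 0.650, and in treated culture 4 the ratio was 1.03. Myo5a stayed at 0.925% to 5.94% of the sum in all cultures.

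**Figure D3:**
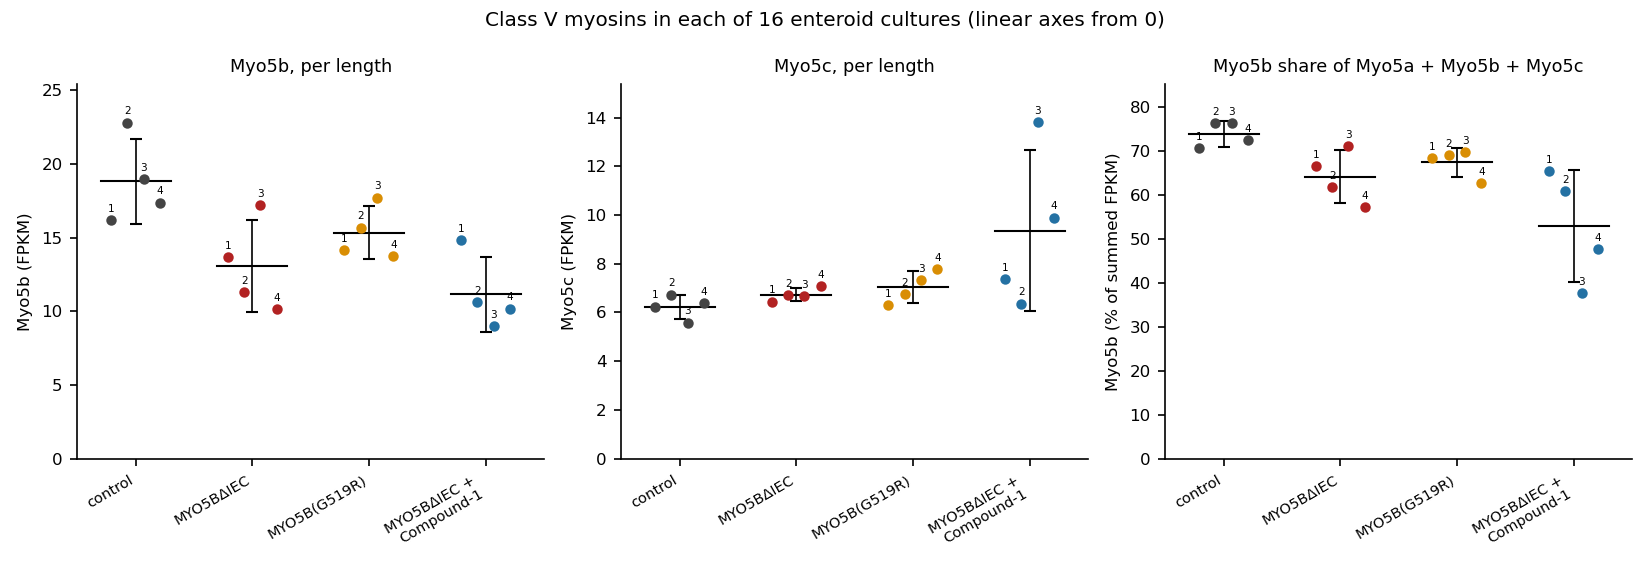
Levels of Myo5b and Myo5c (FPKM as given by the authors) and the share of Myo5b in the summed FPKM of Myo5a, Myo5b and Myo5c (percent), 1 point per culture with its replicate number, lines at the mean and bars of SD (n = 4), linear axes from 0. The share was 70.6% or above in control and was 37.6% in treated culture 3.

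Relative to Myo5b, the per-length level of Rab11fip1 was 0.341 ± 0.0686 in control (SD, n = 4). It was 1.09 ± 0.196 in MYO5BΔIEC without and 1.79 ± 0.933 with Compound-1, and 0.834 ± 0.0486 in MYO5B(G519R). The highest control ratio, 0.437, was below the lowest of the other 12 cultures, 0.771. Myo6 over Myo5b was 1.03 ± 0.218 in control, 1.64 ± 0.0874 in MYO5B(G519R), 2.13 ± 0.299 in MYO5BΔIEC and 2.44 ± 0.582 with Compound-1, again with no overlap between the controls, up to 1.32, and the others, from 1.56. These ratios combine the changes described above and were not tested.

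Over the 16 cultures, the genes whose log levels were most like those of Myo5b were Maob (Pearson r = 0.908), Magt1 (r = 0.893), Stard4 (r = 0.892), Trmt2b (r = 0.883) and Irgm1 (r = 0.877), among 9650 genes with a mean of at least 10 CPM. These correlations are a description over cultures that share their group structure and carry no test. Mean levels of Maob, a monoamine oxidase, were 53.8 CPM in control, 23.5 CPM in MYO5B(G519R), 29.0 CPM in MYO5BΔIEC and 14.6 CPM with Compound-1.

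The wider machinery around these motors was described with 6 lists of 117 genes in all. In MYO5BΔIEC, 32 of 110 tested genes were higher and 6 lower than in control (median log2 fold change 0.23), where 13.5% of all tested genes were higher and 13.8% lower. In MYO5B(G519R), 28 of 109 were higher and 13 lower, with a median of 0.20, against 13.1% and 13.7% of all tested genes. These background shares apply to each list below. None of the 110 was called between treated and untreated MYO5BΔIEC, where 7 had an unadjusted p under 0.05, as did 1355 of 18037 tested genes. Without control culture 1 the counts were 41 higher and 13 lower in MYO5BΔIEC, and 45 higher and 20 lower in MYO5B(G519R), while the shares of all tested genes were those given above for that setting.

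Among other unconventional myosins, 9 of 16 tested genes were higher and 0 lower in MYO5BΔIEC (median log2 fold change 1.12), and 9 of 15 were higher and 0 lower in MYO5B(G519R), with a median of 1.00. With the trend on gene length removed, the same 9 genes were called higher in each comparison, with 1 and 2 lower and medians of 0.91 and 0.73. Myo18a went from 88.3 ± 12.5 CPM in control to 247 ± 51.0 CPM in MYO5BΔIEC and 231 ± 36.2 CPM in MYO5B(G519R), the greatest level among the 4 myosins named. Myo1c, a class I myosin that links membranes to actin, rose by 1.35 in MYO5BΔIEC and 1.30 in MYO5B(G519R), and Myo1e by 1.13 and 1.00 (log2 scale). Myo9b rose by 0.92 and 0.78. For all 4 of these genes the edgeR BH-adjusted p was at most 0.00195 in MYO5BΔIEC and 0.00624 in MYO5B(G519R), and every mutant culture was above every control.

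**Figure D4:**
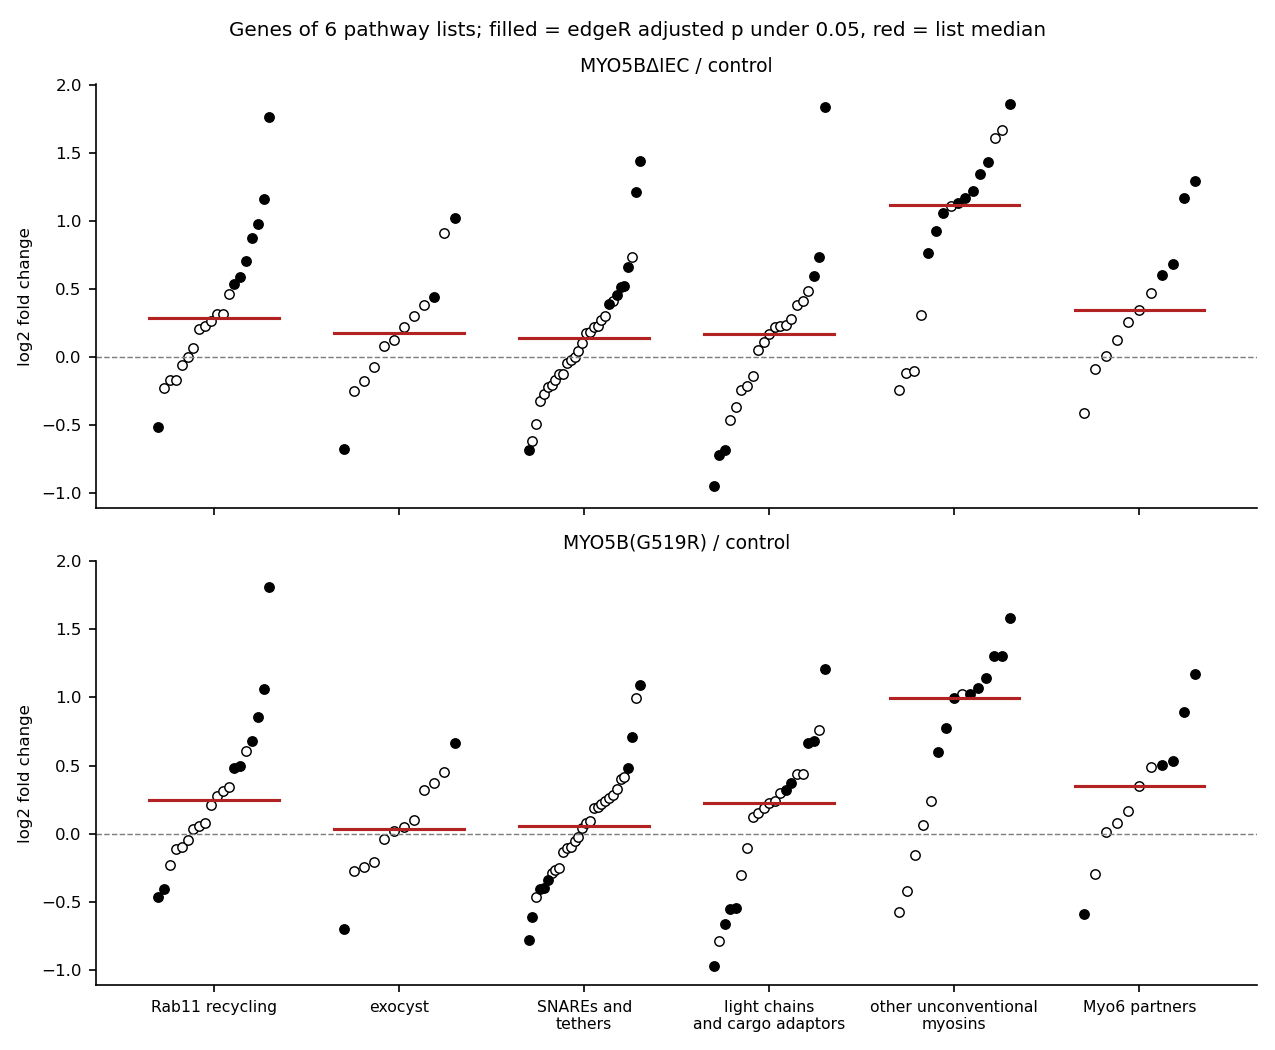
Log2 fold changes of the tested genes of 6 lists in MYO5BΔIEC (top) and MYO5B(G519R) (bottom) against control, 1 point per gene sorted within its list. Filled points passed an edgeR BH-adjusted p of 0.05 and red lines are list medians. The other unconventional myosins had medians of 1.12 and 1.00, and the medians of the other lists were between 0.03 and 0.35.

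Of the Rab11 recycling genes, 7 of 20 were higher and 1 lower in MYO5BΔIEC, and 6 higher and 2 lower in MYO5B(G519R). These counts were 8 and 2, and 9 and 3, without control culture 1. The 4 genes with the smallest p in MYO5BΔIEC were Ehd1, Micall1, Ehd4 and Pacsin2. Ehd1, an ATPase of the recycling compartment, was at 54.0 ± 5.49 CPM in control, 110 ± 8.87 CPM in MYO5BΔIEC and 104 ± 7.85 CPM in MYO5B(G519R), a change of 0.98 and 0.86 on the log2 scale (edgeR BH-adjusted p = 0.00148 and 0.00196). Its partner Micall1 rose by 1.16 and 1.06, Ehd4 by 0.59 and 0.50 and Pacsin2 by 0.54 and 0.48. Rab25, an epithelial Rab11 family member, was lower in MYO5BΔIEC by 0.51 (edgeR BH-adjusted p = 0.0258), and Rab11a and Rab11b, the GTPases that recruit these effectors, did not pass the test there (log2 fold changes of 0.21 and 0.26).

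Among the 30 genes of SNAREs and tethers, 7 were higher and 1 lower in MYO5BΔIEC, and 3 higher and 5 lower in MYO5B(G519R). Leaving out control culture 1, they were 10 higher and 4 lower, and 10 higher and 8 lower, so that the balance in MYO5B(G519R) turned. Vps18, a subunit of the tethering complexes to which the paralogs of Vps33b belong, rose from 18.5 ± 2.05 CPM in control to 44.5 ± 4.87 CPM in MYO5BΔIEC and 41.8 ± 3.07 CPM in MYO5B(G519R), a change of 1.21 and 1.09 on the log2 scale (edgeR BH-adjusted p = 0.00140 and 0.00181). Vamp2, a vesicle SNARE, rose by 0.52 and 0.48, and the syntaxin Stx1a by 0.66 and 0.71. The 5 genes called lower in MYO5B(G519R) were Vamp7 (-0.78), Stx8 (-0.61), Stxbp3 (-0.40), Vipas39 (-0.40) and Snap23 (-0.34). In MYO5BΔIEC the gene called lower was Vamp7 (-0.68).

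In the exocyst, the octameric complex that tethers vesicles at the plasma membrane, 2 of 12 genes were higher and 1 lower in MYO5BΔIEC, and 1 higher and 1 lower in MYO5B(G519R), shares near or below the background. In each comparison 3 were higher and 2 lower without control culture 1. Exoc6, the subunit that binds Rab11 and myosin Vb, was at 50.4 ± 2.14 CPM in control, 32.7 ± 4.25 CPM in MYO5BΔIEC and 32.9 ± 1.63 CPM in MYO5B(G519R). It fell by 0.68 (edgeR BH-adjusted p = 0.00484) and 0.70 (edgeR BH-adjusted p = 0.00219), with no overlap between mutant and control cultures. Exoc4 rose by 1.02 (edgeR BH-adjusted p = 0.00761) and 0.66 (edgeR BH-adjusted p = 0.0353), and the second call was lost with the trend on gene length removed (0.39, edgeR BH-adjusted p = 0.114). That removal also turned the median of the list from 0.17 to -0.05 in MYO5BΔIEC and from 0.03 to -0.16 in MYO5B(G519R).

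Of 21 genes of light chains and cargo adaptors, 3 were higher and 3 lower in MYO5BΔIEC, and 5 higher and 4 lower in MYO5B(G519R). The share in MYO5BΔIEC was near the background in each direction. Without control culture 1, 5 were higher and 4 lower in MYO5BΔIEC, and 7 higher and 4 lower in MYO5B(G519R). Sytl1, a Rab27 effector, was the most increased of those named, at 5.77 ± 0.507 CPM in control and 21.3 ± 10.02 CPM in MYO5BΔIEC (log2 fold change 1.84, edgeR BH-adjusted p = 0.00322). Unc45a, a myosin chaperone, rose by 0.73 and 0.68 in MYO5BΔIEC and MYO5B(G519R). Calml4, a light chain of the brush border, fell by 0.95 and 0.97, and Dynll1, a light chain shared by dynein and myosin V, fell by 0.68 and 0.55, with overlapping ranges for both.

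Partners of Myo6 were higher in 4 of 11 genes and lower in 0 in MYO5BΔIEC, and higher in 4 and lower in 1 in MYO5B(G519R). The counts were 5 higher and 1 lower, and 6 higher and 2 lower, without control culture 1. Lmtk2, a membrane kinase that binds myosin VI, was at 56.8 ± 10.8 CPM in control, 144 ± 19.6 CPM in MYO5BΔIEC and 135 ± 23.5 CPM in MYO5B(G519R), a change of 1.29 and 1.17 on the log2 scale (edgeR BH-adjusted p = 0.00144 and 0.00222). The endosomal adaptors Tom1l2 and Tollip rose by 1.17 and 0.68 in MYO5BΔIEC and by 0.89 and 0.53 in MYO5B(G519R). Calcoco1 rose by 0.60 and 0.50, and these calls were lost with the trend on gene length removed (edgeR BH-adjusted p = 0.131 and 0.151).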

How the data were processed

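RNA of 16 cultures was sequenced from poly(A)-selected libraries, and sample labels gave the 4 groups of 4 cultures. According to the submitters' processing notes, the authors used STAR 2.5 and HTSeq 0.6.1, and the build was GRCm38 (mm10). The methods also name TopHat, for parsing alignments, and DESeq2, for the study's own differential expression test. The deposited count values are reads per gene for 54532 genes, and the authors derived the deposited FPKM values from these by gene length and library size. Whether counting used strand, and how reads with several positions were treated, is not given in the sources used here.

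The test was the quasi-likelihood F test of edgeR 4.0.16 (R 4.3.3), run on TMM-scaled libraries for 5 pairs of groups. A gene entered a comparison if 2 or more of its 8 cultures had 10 or more counts. The test is two-sided, with Benjamini-Hochberg adjustment over all genes tested and a threshold of 0.05. Adjusted p in the text refers to this test. The scripts were tested on simulated data. That the 4 cultures of a group came from 4 mice is stated in a figure legend of the paper and not in the sample labels. The members and the gene lists were chosen with earlier results of these data known, so neither is independent evidence. All 10 genes are named, and from each of 6 lists the 4 genes with the smallest p in MYO5BΔIEC against control, of which 1 is not reported here. Rab25, Rab11a, Rab11b and the SNARE and tether genes called lower were named after their values were seen. Sequences were taken from RefSeq and gene places were checked against GENCODE.

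Alternatives were DESeq2 1.42.0, its size factors in edgeR, no filter, a joint fit of all 4 groups, a replicate block, an offset that removes the trend of log2 CPM on gene length in each library, limma 3.58.1 on log2(FPKM + 1) and log2(FPKM + 0.1) for genes over 1 FPKM, and each culture left out in turn. Tissue samples of the study were not analysed here.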

Additional observations from a re-analysis of the deposited data

Results flagged for a closer look

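In 40 groups of 4 cultures (10 genes in 4 groups), 2 cultures lay far from the others of their group by the ratio of the gap to the range. Chance gives about 1 in 20 such groups, so 2 of 40 is what chance would give. Myo5c in MYO5BΔIEC culture 4 was at 70.3 CPM, above 64.2 to 65.1 CPM in the other cultures of that group. Rab11fip1 in MYO5B(G519R) culture 3 was at 170 CPM, above 129 to 135 CPM in the others. Without that culture the log2 fold change of Rab11fip1 against control was 0.89, and it passed the test.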

How the results depend on the processing

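With alternatives other than leaving out a culture, the number of the 10 genes called in MYO5BΔIEC against control, 2 as reported, was 4 with DESeq2, 4 with all 4 groups in 1 fit, 4 with limma on log2(FPKM + 1), 4 with limma on log2(FPKM + 0.1) and 1 with the replicate block. In MYO5B(G519R) against control, 3 as reported, it was 1 with no filter and 1 with the replicate block. With 1 culture left out, these counts against control were 1 to 5 for MYO5BΔIEC, 1 to 5 for MYO5B(G519R) and 2 to 7 for treated MYO5BΔIEC (6 as reported), with 5 in the first and second reached without control culture 1. The calls on the 6 lists ranged from 21 to 54 in MYO5BΔIEC and from 25 to 65 in MYO5B(G519R). The cause of these shifts was not tested. Rab11fip1 passed the test against control in all of these settings. Removing the trend on gene length reversed the log2 fold changes of Myo5c (-0.17) and Myo5a (-0.083) in MYO5BΔIEC against control, of Stx3 (-0.064) and Myo5c (-0.065) in MYO5B(G519R) against control, and of Stxbp2 (-0.0088) in MYO5B(G519R) against MYO5BΔIEC. None of these passed the test under either setting. Under it Myo5b was called lower in MYO5BΔIEC (-0.82, edgeR BH-adjusted p = 0.0111) and MYO5B(G519R) (-0.55, edgeR BH-adjusted p = 0.0231), as was Rab11fip2 in MYO5B(G519R) (-0.75, edgeR BH-adjusted p = 0.0366). The replicate block reversed Myo5a in MYO5B(G519R) against control (0.019).

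Deviations of same-numbered cultures correlated above 0.1 for every number in no comparison, so the numbers were not taken to pair the cultures. Their r was -0.23 to 0.23 in 4 of the 5 comparisons and 0.069 to 0.57 in MYO5B(G519R) against MYO5BΔIEC, where 3 of 4 numbers matched their own number best. Under the replicate block the calls of Myo6 against control (edgeR BH-adjusted p = 0.0658, 0.0932 and 0.0734 in MYO5BΔIEC, MYO5B(G519R) and treated MYO5BΔIEC), Stxbp2 in MYO5B(G519R) (0.0859) and Myo5a in treated MYO5BΔIEC (0.0927) were not made, and no other call on the 10 genes changed. With 1 culture left out in turn, small changes turned sign. Against control, Vps33b ranged from -0.013 to 0.092 in MYO5BΔIEC and from -0.093 to 0.037 in MYO5B(G519R), and Myo5a from -0.17 to 0.29 in MYO5B(G519R). Between treated and untreated MYO5BΔIEC, Myo6 ranged from -0.12 to 0.030 and Rab11fip2 from -0.13 to 0.071. Between MYO5B(G519R) and MYO5BΔIEC, Stxbp2 ranged from -0.034 to 0.037 and Rab11fip5 from -0.19 to 0.57. Depth limits Rab11fip5 most, with 5 to 369 counts per culture.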
